A study of Mus musculus with 5 samples.

Results

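The Hox genes encode homeodomain transcription factors and lie in 4 clusters, Hoxa on chromosome 6, Hoxb on chromosome 11, Hoxc on chromosome 15 and Hoxd on chromosome 2. The CpG methylation described here is that of every CpG island (CGI) and CpG island shore, the flank of an island, that lay inside or within 1 kb of 1 of 38 listed Hox genes and had a level in each of 5 libraries. This rule gave 168 regions, 60 islands and 108 shores, of 30910 regions (14214 islands and 16696 shores) that had a level in all 5 libraries. They belonged to 36 of the 38 genes, while Hoxa2 and Hoxb13 had none, and a region within 1 kb of several Hox genes (31 of the 168) was assigned to the shortest of them. Islands and shores of a cluster overlap or adjoin, so that the 168 regions formed 67 separate stretches of DNA. A further 8 regions lacked a level in at least 1 library and are not described.

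The libraries were made by reduced representation bisulfite sequencing, which reads cytosine methylation in the CpG-rich fragments left by the enzyme MspI, and each is a bulk average over many cells. All 5 came from mice or cells of the C57BL6 strain. The female ESC library came from a female embryonic stem cell line, and the pESC library from a parthenogenetic embryonic stem cell line, whose genome has no paternal contribution. Both lines were grown on feeder cells in serum with LIF. The PGC library came from primordial germ cells of fetal gonads at E12.5, collected with magnetic SSEA1 beads. The ESC-PGCLC and pESC-PGCLC libraries came from primordial germ cell-like cells made from these lines: after passages in an inhibitor medium (t2iL), cells spent 46 h as epiblast-like cells with activin A and bFGF and 4 days in floating culture with BMP4, LIF, SCF and EGF, and were sorted for CD61 and SSEA1. Each group was 1 library of 1 line or 1 preparation, so no value below has an error between replicates, no difference was tested, and each comparison is between 2 libraries. The level of a region is its deposited CpG methylation level in percent; whether it is a mean over sites or over reads is not known here. The number of reads behind it is not given either, so depth and counting error are unknown. A region counts as called where 2 libraries were 10 or more percentage points apart.

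Hox genes give body segments their identity along the head to tail axis. Genes at the anterior end of a cluster (low paralogue numbers) act first and toward the head, and genes at the posterior end act later and toward the tail. In pluripotent cells and early germ cells the clusters are known to be held silent by Polycomb proteins, which add methyl groups to histone H3 and bind unmethylated CpG islands, rather than by DNA methylation. Germ cell specification is known to involve repression of Hox genes and genome-wide loss of DNA methylation.

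The promoters of 4 genes are printed to show what lies under the lowest and the intermediate levels in these clusters. Each is the 250 bases before the start site, from RefSeq on GRCm38.p6, 5′ to 3′ on the strand of the gene, with each CpG in capitals. Hoxa13 and Hoxd13, posterior genes of limb and genital development, have promoters inside islands with a mean level over the 5 libraries of 1.35% and 1.28%, and hold 35 and 31 CpGs. Hoxa7 and Hoxa9, genes of the trunk, have promoters that touch no island with a level but lie in shores of up to 17.5% and 14.6%, and hold 7 and 3 CpGs. The positions are chr6:52260881-52261130 (minus strand) for Hoxa13, chr2:74667975-74668224 (plus strand) for Hoxd13, chr6:52218574-52218823 (minus strand) for Hoxa7 and chr6:52227371-52227620 (minus strand) for Hoxa9.
Hoxa13: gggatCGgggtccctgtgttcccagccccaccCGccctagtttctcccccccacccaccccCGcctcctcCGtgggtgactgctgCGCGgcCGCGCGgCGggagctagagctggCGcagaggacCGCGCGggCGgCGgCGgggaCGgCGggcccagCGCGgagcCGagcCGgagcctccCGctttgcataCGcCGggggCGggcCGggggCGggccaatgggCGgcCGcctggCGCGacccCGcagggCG
Hoxd13: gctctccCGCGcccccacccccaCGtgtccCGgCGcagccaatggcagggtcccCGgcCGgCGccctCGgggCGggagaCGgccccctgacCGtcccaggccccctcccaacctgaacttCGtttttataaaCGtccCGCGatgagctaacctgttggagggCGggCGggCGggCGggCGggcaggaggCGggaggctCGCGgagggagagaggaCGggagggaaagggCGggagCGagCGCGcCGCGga
Hoxa7: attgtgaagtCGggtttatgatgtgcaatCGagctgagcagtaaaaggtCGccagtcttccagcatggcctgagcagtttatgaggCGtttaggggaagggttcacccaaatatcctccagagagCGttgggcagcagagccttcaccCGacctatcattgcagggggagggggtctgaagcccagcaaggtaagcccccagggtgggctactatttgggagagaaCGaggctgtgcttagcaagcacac
Hoxa9: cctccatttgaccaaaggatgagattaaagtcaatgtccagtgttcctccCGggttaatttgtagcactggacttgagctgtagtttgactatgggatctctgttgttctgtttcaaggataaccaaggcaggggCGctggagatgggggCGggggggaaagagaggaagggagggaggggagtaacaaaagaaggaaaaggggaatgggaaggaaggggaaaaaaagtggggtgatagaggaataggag
The level of a region covers all of it, so the CpGs printed are not necessarily the ones that were read. Promoters of 22 of the 38 genes were in the table, in 24 windows of that length. The 11 windows that touched an island held a median of 20 CpGs (12 to 35), the 8 that touched only a shore a median of 9, and the 5 that touched neither a median of 6, which is also the median of all 32851 promoters. The letters CCGG, at which MspI cuts (a palindrome, the same on both strands), were in 18 of the 24 Hox windows and in 47.1% of all promoters.

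A pair of microRNA genes of the clusters is printed for a contrast in level described further down, with the seed (bases 2 to 8) in capitals. They are miR-10a, beside Hoxb4 (chr11:96317186-96317208, plus strand), and miR-10b, beside Hoxd4 (chr2:74726074-74726096, plus strand), known as repressors of Hox messages. Both mature sequences are from RefSeq on GRCm38.p6.
miR-10a-5p: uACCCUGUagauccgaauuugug
miR-10b-5p: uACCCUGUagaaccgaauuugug
They share the seed and differ by U12A, counted from 1 at the 5′ end of miR-10a-5p.

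Hox islands had very low methylation in all 5 libraries. The female ESC median was 1.88%, beside 1.87% in pESC, 1.92% in PGC, 1.98% in ESC-PGCLC and 2.14% in pESC-PGCLC. The 5 medians lay closer together than the islands of 1 library, whose quartiles in female ESC were 1.45% and 2.47%. Over all islands the medians were 1.54%, 1.49%, 1.48%, 1.65% and 1.65% in the same order. The number of Hox islands under 5% was 53 of 60 in female ESC and in pESC, 58 in PGC and 56 in each PGCLC library. These shares, 88.3%, 88.3%, 96.7%, 93.3% and 93.3%, were near those of all islands. Of all islands 91.0%, 91.8%, 91.8%, 91.7% and 91.4% were under 5%. A mean level over the 5 libraries of at least 10% was reached by 1 of 60 Hox islands and by 5.52% of all islands.

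**Figure D1:**
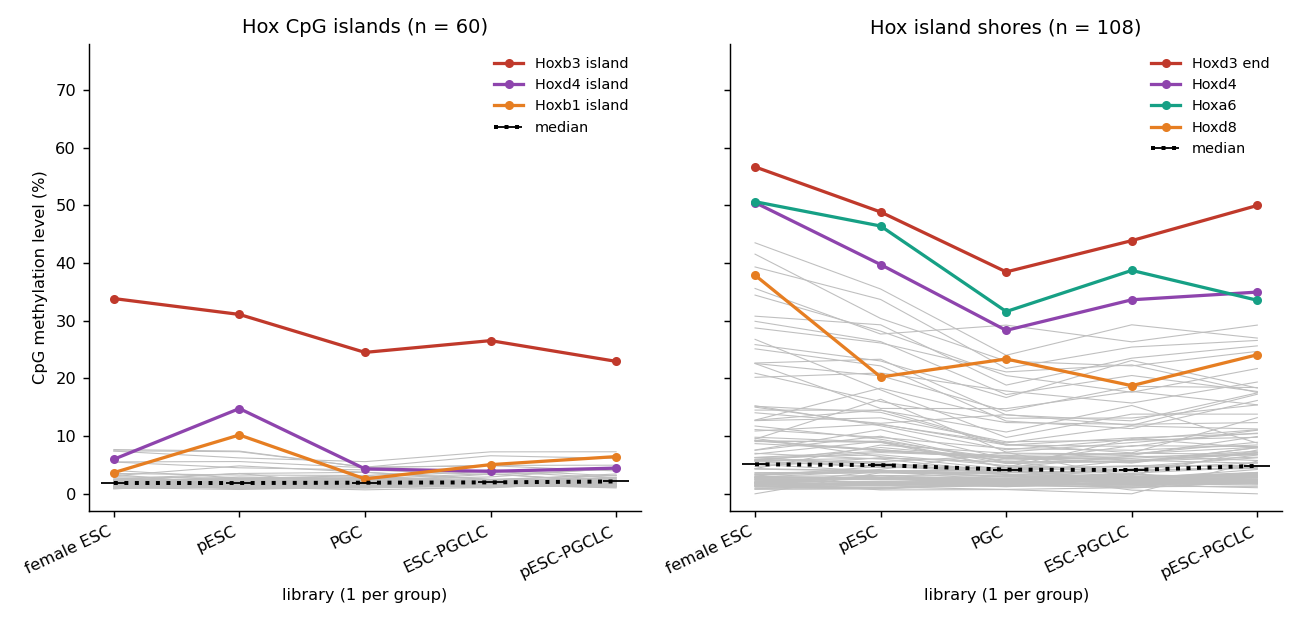
CpG methylation level (percent) of each Hox island (left, n = 60) and each Hox shore (right, n = 108) in the 5 libraries, 1 thin line per region and a dotted line for the Hox median. Coloured lines are single regions named in the text, and lines join libraries only to show which values belong together. Island medians lie between 1.87% and 2.14% in every library, and shore medians between 4.12% and 5.12%.

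The exception lay in Hoxb3, an anterior gene of hindbrain patterning. The island chr11:96314539-96314989, inside the long Hoxb3 gene, stood at 33.9% in female ESC, 31.1% in pESC, 24.5% in PGC, 26.6% in ESC-PGCLC and 23.0% in pESC-PGCLC. No other Hox island had a mean above 6.75%. After it came an island of Hoxd3, a gene of the neck vertebrae, at chr2:74740422-74740702, with 7.40%, 6.23%, 5.58%, 7.28% and 7.29% in the same order. The Hoxd12 island chr2:74675196-74675530, near the posterior end of its cluster, had 7.68%, 7.40%, 4.61%, 6.60% and 6.15%. A second Hoxd3 island, chr2:74732705-74733253, had 7.46%, 7.30%, 4.63%, 4.86% and 3.97%. In these last 2 islands both stem cell libraries were above the other 3.

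In 2 further islands the pESC library alone was high. The island chr2:74727333-74727642 at Hoxd4, which also lies within Hoxd3, had 14.8% in pESC. It had 5.99% in female ESC, 4.32% in PGC, 3.89% in ESC-PGCLC and 4.46% in pESC-PGCLC. The island chr11:96365874-96366265 at Hoxb1, which specifies a hindbrain segment, had 10.2% in pESC, against 3.67%, 2.59%, 5.06% and 6.45% in the other libraries in that order. Whether 1 unusual fragment sets these short islands cannot be read from the levels. The gap to the next library was 8.79 points at Hoxd4 and less at Hoxb1. The other Hoxb1 island, with a mean of 2.87%, was not high in pESC (1.48%).

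The lowest region of each cluster was below 2% in every library. For Hoxa it was an island of Hoxa3, chr6:52211661-52211870, at 1.41% in female ESC, 0.928% in pESC, 1.01% in PGC, 1.37% in ESC-PGCLC and 1.24% in pESC-PGCLC, an order kept below. For Hoxb it was the island chr11:96283989-96284651 between Hoxb7 and Hoxb8, at 1.07%, 0.749%, 1.12%, 1.62% and 1.17%. For Hoxc it was a shore of Hoxc4, chr15:103032759-103034759, at 0.829%, 0.824%, 1.79%, 1.51% and 1.06%. This shore covers the start site of Hoxc4 and is as low as the islands. For Hoxd it was the island of Hoxd13 whose promoter is printed above, at 1.25%, 1.05%, 1.47%, 1.36% and 1.29%. In total 8 genes had no region assigned to them with a mean of 5% or more: Hoxa4, Hoxb6, Hoxb8, Hoxc8, Hoxc9, Hoxc11, Hoxd1 and Hoxd13. A shore assigned to Hoxb5, with a mean of 10.8%, also lay within 1 kb of Hoxb6.

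Most methylation in the clusters was in shores, and in few of them. Medians of the 108 Hox shores were 5.12%, 4.98%, 4.20%, 4.12% and 4.84%, beside 4.35%, 4.23%, 4.31%, 4.26% and 4.54% over all shores. Means were 10.2%, 9.38%, 7.16%, 7.63% and 8.33%, beside 14.3%, 12.9%, 11.3%, 12.46% and 12.1%. Hox shores thus had medians near those of all shores and lower means, and few of them were highly methylated. At least 50% was reached by 3 of 108 Hox shores in female ESC, 0 in pESC, PGC and ESC-PGCLC, and 1 in pESC-PGCLC, where 8.93% of all shores reached it in female ESC. A mean over the 5 libraries of at least 20% was found for 12.0% of Hox shores and 22.04% of all shores, and of at least 10% for 30 of 108 (27.8%) and 32.1%.

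Hox clusters are dense in islands, and a shore often contained part of a neighbouring island. More than 50 bp of another island lay in 35 of 108 Hox shores (32.4%) and in 10.3% of all shores. Among those 35, 2 had a mean of at least 10% (5.71%, beside 11.5% of such shores in general). Among the 73 clear of other islands, 28 had it (38.4%, beside 34.4%). Set apart in this way, the share of Hox shores at 10% or more was above that of all shores in the clear group and below it in the other. No Hox shore of either group, but 5.32% of all shores, had a mean of 50% or more.

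The 30 Hox shores with a mean of at least 10%, which formed 27 separate stretches, had medians of 23.9% in female ESC, 20.7% in pESC, 14.6% in PGC, 16.7% in ESC-PGCLC and 17.5% in pESC-PGCLC. Female ESC was the highest library at 21 of the 30 and PGC the lowest at 16, beside 70.2% and 56.6% of the 5353 shores of that mean level in the whole table. ESC-PGCLC was lowest at 11 of 30 Hox shores, and in 12.0% of all such shores. These shores were assigned to 18 genes: Hoxa3, Hoxa6, Hoxa7, Hoxa9, Hoxa10, Hoxa13, Hoxb1, Hoxb3, Hoxb4, Hoxb5, Hoxb9, Hoxc4, Hoxc10, Hoxc12, Hoxd3, Hoxd4, Hoxd8 and Hoxd12.

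**Figure D2:**
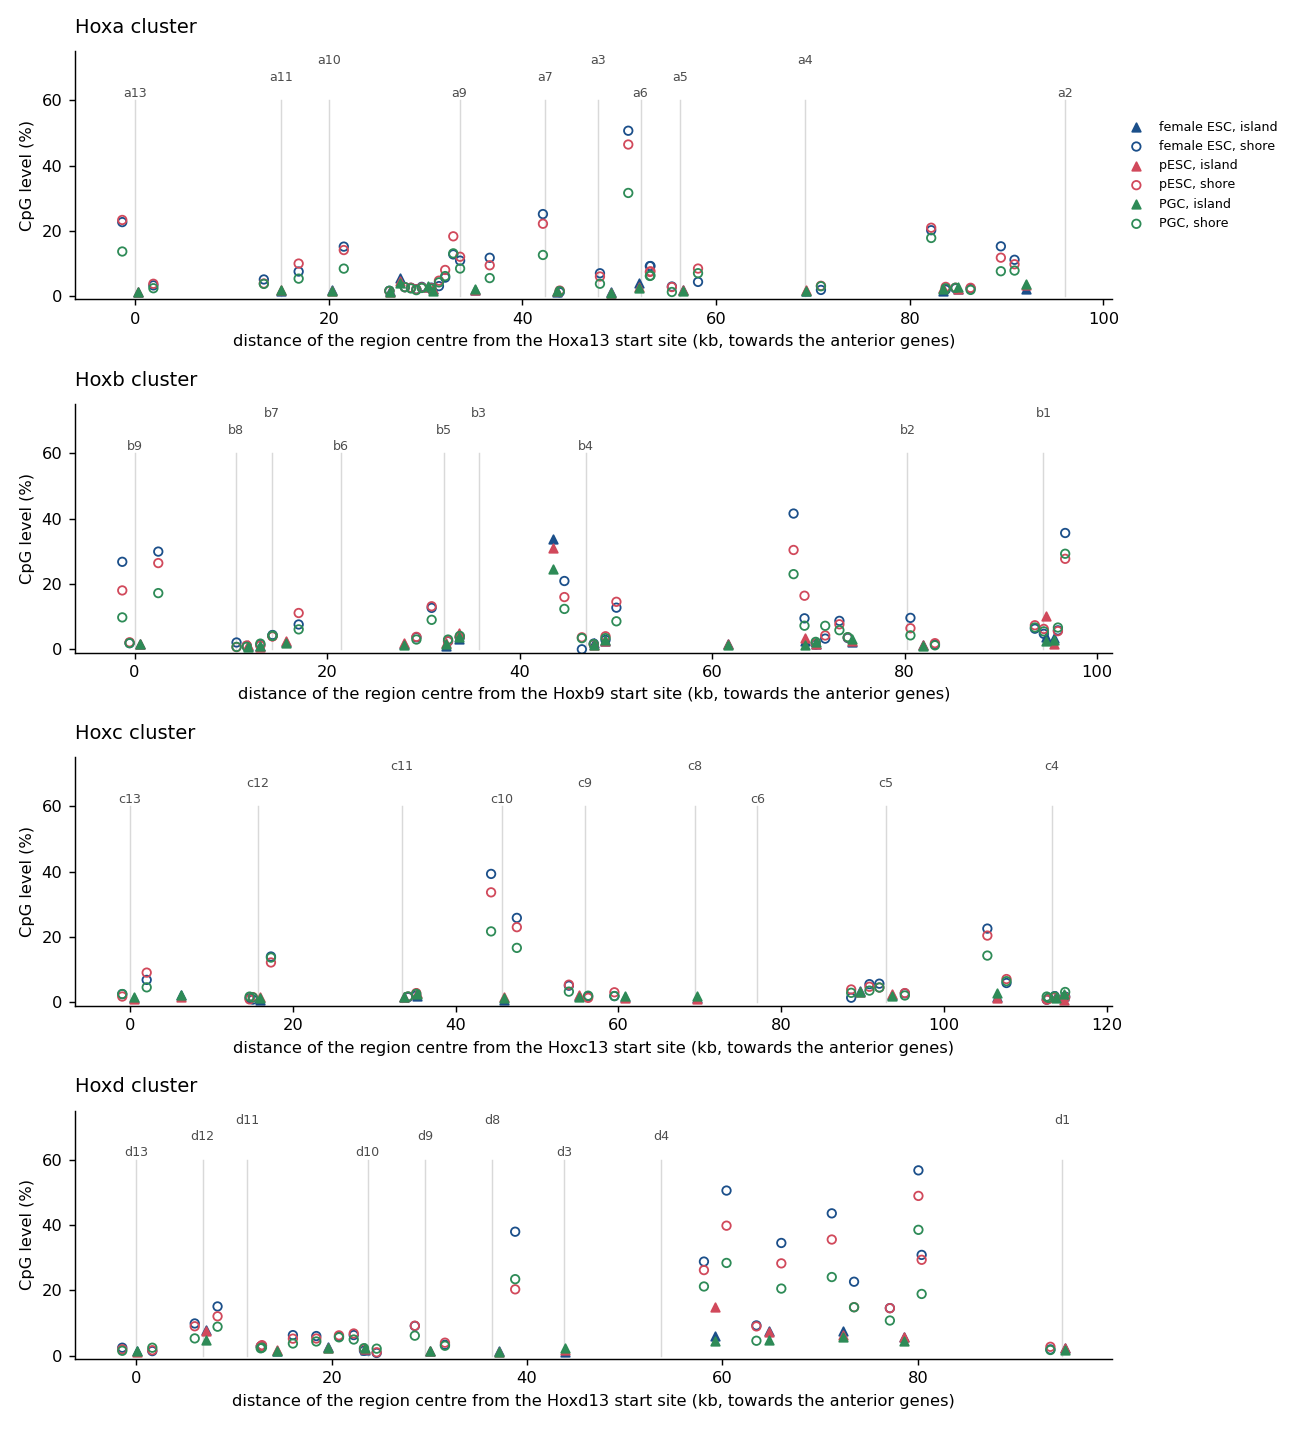
CpG methylation level (percent, vertical axis) of each Hox region in the female ESC, pESC and PGC libraries along the 4 clusters (kb from the start site of a posterior gene toward the anterior genes, horizontal axis). Triangles are islands, open circles shores, and grey lines 1 start site per gene. Shores of Hoxd4 and Hoxd3 form a run of high regions, reaching 56.7% in female ESC, and most islands stay near 2%, with the one inside Hoxb3 at 33.9% in female ESC.

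In the Hoxd cluster most methylated shores lay at Hoxd3, Hoxd4 and Hoxd8, while the shores of Hoxd1 and Hoxd13 were low. The 8 anterior Hoxd shores (paralogues 1 to 3) averaged 26.7% in female ESC, the 3 central shores (Hoxd4 and Hoxd8) 39.1% and the 14 posterior shores 5.23%. The 25 Hoxd shores averaged 16.2% in female ESC, 13.5% in pESC, 10.4% in PGC, 11.6% in ESC-PGCLC and 12.1% in pESC-PGCLC, and 10 of them had a mean over libraries of at least 10%. The Hoxa, Hoxb and Hoxc shores had means of 8.96%, 9.05% and 6.97% in female ESC and 6.39%, 6.59% and 5.30% in PGC. They held 8 of 31, 8 of 30 and 4 of 22 shores at or above 10%. In each cluster the PGC mean was below the female ESC mean, and Hoxd was the highest cluster in every library.

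The shore with the highest mean of all lay at the end of Hoxd3 (chr2:74747291-74749292, also within 1 kb of the noncoding gene Haglr), with 56.7%, 48.9%, 38.5%, 43.9% and 50.0%. The shore chr2:74747623-74749623, which overlaps it, had 30.8%, 29.3%, 18.9%, 23.5% and 25.7%. Further shores inside Hoxd3 were chr2:74738421-74740421, with 43.5%, 35.5%, 24.0%, 29.3% and 27.0%, and chr2:74733253-74735254, with 34.5%, 28.2%, 20.5%, 17.6% and 21.7%. In each of these shores female ESC was the highest library, and in 3 of the 4 PGC was the lowest. The shore of Hoxd4 that follows its island (chr2:74727642-74729643) had 50.5%, 39.8%, 28.3%, 33.6% and 34.98%. Overlapping Hoxd8, a trunk gene in the middle of the cluster, chr2:74706004-74708005 had 37.9% in female ESC and 20.3%, 23.4%, 18.8% and 24.1% in the other libraries.

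In the Hoxa cluster the shore chr6:52208947-52210948, at Hoxa6 and within the long Hoxa3 gene, was highest, with 50.7%, 46.4%, 31.6%, 38.7% and 33.6%. Hoxa6 acts in the thoracic region, and this shore also overlaps the noncoding gene Hoxaas3. The Hoxa7 shore that holds the printed promoter (chr6:52217758-52219759) had 25.1%, 22.2%, 12.6%, 11.3% and 16.2%. At Hoxa13 the flank upstream of the island, chr6:52261198-52263199, had 22.7%, 23.3%, 13.7%, 12.7% and 17.5%. In these Hoxa shores the stem cell libraries were above the germ cell libraries with no overlap, while the Hoxa13 island beside the last stayed between 1.20% and 1.52%. The 2 overlapping Hoxa9 shores that hold its printed promoter, with means of 14.6% and 10.1%, showed no such order: female ESC was the lowest library in the first (12.8%) and lay among the others in the second (10.9%).

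In the Hoxb cluster the highest shore, chr11:96367021-96369022 past the end of Hoxb1, had 35.6%, 27.7%, 29.3%, 26.4% and 29.3%. A shore inside Hoxb3, chr11:96338801-96340801, had 41.6%, 30.4%, 23.0%, 22.2% and 24.7%. At Hoxb9, the posterior gene of the cluster with a region, methylated shores lay on either side. The shore chr11:96269054-96271054, of which 11.3% is another island, had 26.8%, 18.02%, 9.77%, 13.8% and 13.8%. The shore chr11:96272795-96274796 had 29.9%, 26.4%, 17.2%, 20.5% and 17.7%. Except at Hoxb1, both stem cell libraries were above the 3 germ cell libraries in these shores. A further Hoxb9 shore, chr11:96269814-96271815, which covers the start site and overlaps chr11:96269054-96271054, stayed between 1.63% and 2.15%. In the Hoxc cluster, chr15:102964500-102966500 at Hoxc10, a gene of the lumbar region and hindlimb, was highest, with 39.3%, 33.7%, 21.7%, 25.4% and 26.6%.

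**Figure D3:**
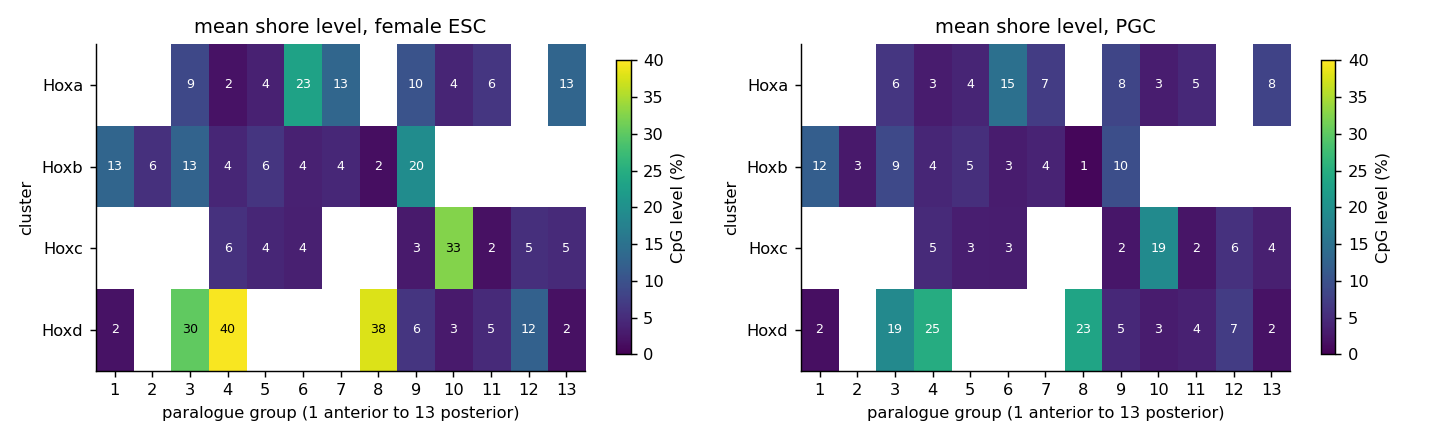
Mean level of the shores assigned to each gene (percent, mean over its shores), by cluster (rows) and paralogue number from 1, anterior, to 13, posterior (columns), for female ESC (left) and PGC (right). Blank cells are genes with no shore assigned or positions with no listed gene. Hoxd3, Hoxd4 and Hoxc10 stand above their paralogues in both panels.

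Paralogues, the copies of 1 ancestral gene in different clusters, did not share a level. Shores of Hoxd4 averaged 39.6% in female ESC, and those of Hoxa4, Hoxb4 and Hoxc4 1.92%, 4.34% and 5.73%. Shores of Hoxd3 averaged 30.3%, and those of Hoxa3 and Hoxb3 8.62% and 12.7%. Shores of Hoxc10 averaged 32.6%, and those of Hoxa10 and Hoxd10 4.10% and 2.85%. The most methylated member was thus in Hoxd for paralogues 3 and 4 and in Hoxc for paralogue 10. These groups were named after their values were seen. Other groups also differed, such as Hoxd8 (37.9%, 1 shore) and Hoxb8 (1.56%, 2 shores). Means of Hoxa4, Hoxd4 and Hoxc10 rest on 1, 2 and 2 shores. By position, a mean of at least 10% was found for 12 of 28 anterior shores (paralogues 1 to 3), 8 of 35 central shores (4 to 8) and 10 of 45 posterior shores (9 to 13). Anterior shores averaged 15.2% in female ESC and 10.5% in PGC, central shores 9.49% and 6.81%, and posterior shores 7.73% and 5.38%. Single clusters did not share this order in female ESC: Hoxa shores averaged 8.62%, 13.1% and 7.04% from anterior to posterior, Hoxb shores 11.7%, 4.32% and 19.5%, and Hoxc shores, none of them anterior, 4.99% and 8.62%. Distance from a start site, given next, was not held equal between these sets.

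Taken as sets, regions further from the start of a Hox gene had higher levels, but single regions did not keep this order. The 15 islands that held a start site had means between 1.28% and 2.24%. Close to a start site, but without one, the Hoxd12 island (183 bp away) had 6.49% and a Hoxb1 island (116 bp) 5.59%. The islands further away reached 6.49% up to 2 kb and 27.8% beyond 2 kb. Among shores, a mean of at least 10% was found for 3 of 29 that covered a start site, all at Hoxa7 or Hoxa9, for 13 of 49 up to 2 kb away, and for 14 of 30 more than 2 kb away. Some of the highest shores lay close to a start site, such as those of Hoxa6 (40.2%, 275 bp) and Hoxc10 (29.4%, 296 bp). Start sites were the RefSeq gene starts, 1 for most genes, and other starts of long genes such as Hoxd4 and Hoxd3 are not marked, so that a region called distant may lie at one.

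**Figure D4:**
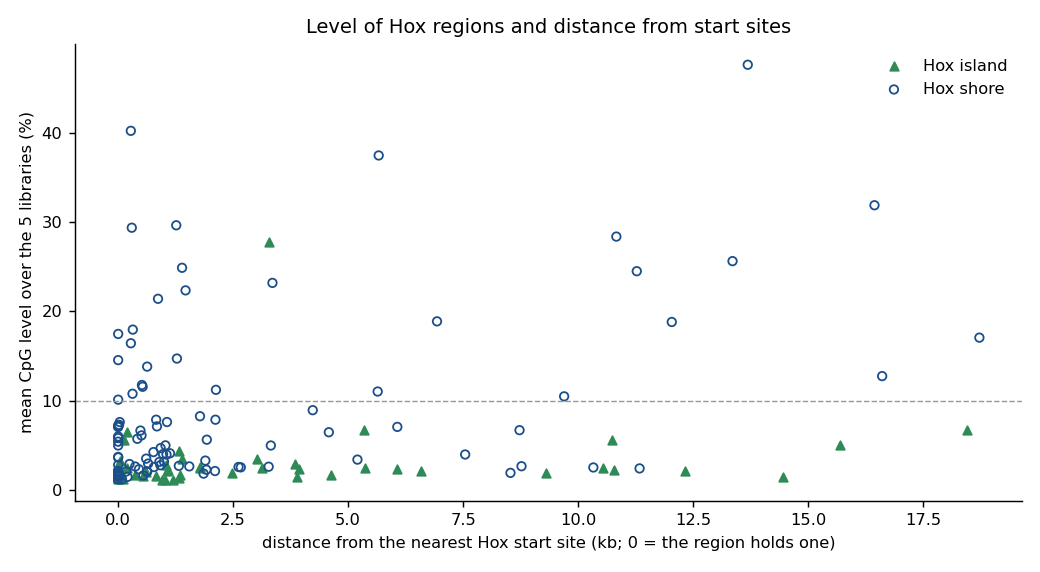
Mean level over the 5 libraries (percent, vertical axis) of each Hox island and shore against its distance from the nearest start site of a Hox gene (horizontal axis). Islands that cover a start site lie between 1.28% and 2.24%, and the shores above 30% include Hoxd3, Hoxd4 and Hoxa6 regions.

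Between the 2 stem cell lines few Hox regions were called, and the methylated shores were mostly lower in pESC, as over all shores. Of 108 shores, 3 were at least 10 points lower in pESC than in female ESC, where 4.56% of all shores were, and 0 were higher, where 1.10% were. They lay at Hoxd8 (20.3% against 37.9%), Hoxb3 (30.4% against 41.6%) and Hoxd4 (39.8% against 50.5%). No Hox island was called, where 0.190% of all islands were higher and 0.901% lower. The largest island difference was the higher pESC level at Hoxd4, 8.79 points. With any size of difference counted, pESC was lower at 56 of 108 Hox shores and 61.2% of all shores, and this turned with levels scaled to the same mean over all shores, where it was lower at 39 and higher at 69 Hox shores. Over the 30 methylated shores, 23 were lower in pESC as deposited (76.7%, beside 79.1% of all shores of that level). The median ratio of the 2 levels was 0.88, beside 0.89. With scaled levels 17 of the 30 were lower.

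Both kinds of germ cell-like cells had lower levels at the methylated Hox shores than the line they came from, and the called differences were mostly in the female ESC pair. In ESC-PGCLC 11 shores were at least 10 points lower than in female ESC (10.2% of Hox shores, where 6.59% of all shores were), and 0 were higher, where 0.892% were. They lay at Hoxa6, Hoxa7, Hoxa13, Hoxb3, Hoxb9, Hoxc10, Hoxd4, Hoxd8 and, with 3 shores, Hoxd3. The largest were Hoxb3 (22.2% against 41.6%) and Hoxd8 (18.8% against 37.9%). No island was called, where 0.950% of all islands were lower and 0.0563% higher. Over the 30 methylated shores, 28 were lower in ESC-PGCLC (93.3%, beside 85.1% of all shores of that level), with a ratio of the 2 levels of 0.74 at the median, beside 0.85 over all shores of that kind.

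In pESC-PGCLC 1 shore, that of Hoxa6 (33.6% against 46.4%), was at least 10 points lower than in pESC, where 2.53% of all shores were, and 0 were higher, where 0.587% were. The only island called was that of Hoxd4 (4.46% against 14.8%), where 0.338% of all islands were lower and 0.0704% higher. Over the 30 shores, 25 were lower in pESC-PGCLC (83.3%, beside 76.6%), with a median ratio of 0.80, beside 0.91 over all shores of that kind. The difference between the 2 induction changes was not tested.

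**Figure D5:**
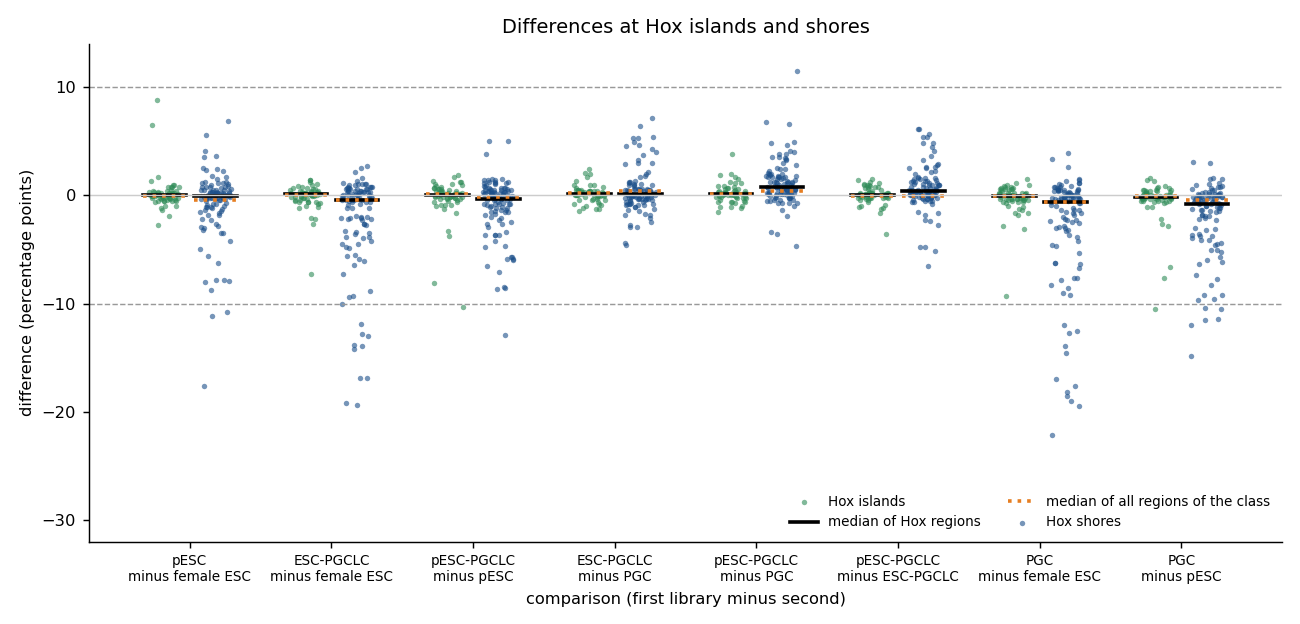
Difference in level (percentage points, vertical axis) of each Hox island and Hox shore in the 8 comparisons (horizontal axis), 1 point per region, with dashed lines at 10 points either way and short bars for the median of Hox regions (black) and of all regions of the class (orange, dotted). The lowest point is the Hoxd4 shore in PGC minus female ESC, -22.2 points, and the 1 point past the upper line is a Hoxd3 shore in pESC-PGCLC minus PGC.

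Of the 5 libraries, PGC had the lowest median at the 30 methylated Hox shores. In PGC 12 shores were at least 10 points lower than in female ESC (11.1% of Hox shores, where 15.1% of all shores were), and 0 were higher, where 0.934% were. They lay at Hoxa6, Hoxa7, the methylated Hoxb9 shores on either side, Hoxb3, Hoxc10, Hoxd8, Hoxd4 and 4 Hoxd3 shores. The largest was Hoxd4 (28.3% against 50.5%). No island was called, where 2.27% of all islands were lower and 0.246% higher. Over the 30 shores, 29 were lower in PGC (96.7%, beside 87.4%), with a median ratio of 0.62, beside 0.75 over all shores of that kind.

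Against pESC, 6 shores were at least 10 points lower in PGC (5.56%, where 5.83% of all shores were) and 0 higher, where 0.641% were. These were Hoxa6 (31.6% against 46.4%), Hoxc10, Hoxd4 and 3 Hoxd3 shores. The Hoxd4 island (4.32% against 14.8%) was the only island called, where 0.851% of all islands were lower and 0.218% higher. The share of Hox shores called against female ESC was thus below that of all shores, and against pESC near it. Among shores with a mean of at least 10%, 40% of the Hox shores and 46.1% of all shores were called lower in PGC than in female ESC.

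Few Hox regions were called between the germ cell-like cells and fetal germ cells. Between ESC-PGCLC and PGC no Hox region was called, where 3.90% of all shores were higher in ESC-PGCLC and 0.641% lower, and 0.802% of all islands were higher and 0.303% lower. Over the 30 shores ESC-PGCLC had a median difference of 1.46 points from PGC, beside 3.33 over all shores of that kind. The median ratio of the 2 levels was 1.15, beside 1.13. In pESC-PGCLC 1 shore was at least 10 points higher than in PGC, that of the end of Hoxd3 (50.0% against 38.5%), where 1.59% of all shores were higher and 0.557% lower. No island was called in this comparison, where 0.190% were higher and 0.183% lower.

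Small differences between the libraries of germ cell-like cells lay mostly in 1 direction. No Hox region differed by 10 points between pESC-PGCLC and ESC-PGCLC, where 0.677% of all shores were higher in pESC-PGCLC and 1.43% lower, and 0.190% of all islands were higher and 0.359% lower. Counted at any size, pESC-PGCLC was above ESC-PGCLC at 79 of 108 Hox shores (73.1%), beside 47.9% of all shores, with a median difference of 0.40 points. It was also above PGC at 85 of 108 Hox shores (78.7%), beside 62.1% of all shores, a comparison that shares the pESC-PGCLC library with the first. The 108 shores formed 62 stretches, so they are not 108 separate observations. Neither count has a test, and with unknown depth a difference of this size cannot be set against counting error.

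The 2 printed microRNAs lay in regions of different level. The shore with miR-10b, at Hoxd4 (chr2:74725332-74727332), had 28.8% in female ESC, 26.2% in pESC, 21.1% in PGC, 22.4% in ESC-PGCLC and 17.6% in pESC-PGCLC. The shore with miR-10a, at Hoxb4 (chr11:96316806-96318806), had 3.66% in pESC, 3.41% in PGC and 0.641% in ESC-PGCLC, and was listed at 0 in female ESC and pESC-PGCLC. The copies with 1 seed thus lay in shores whose levels did not overlap. The regions with miR-196b, at Hoxa10, were an island between 1.60% and 2.17% and 2 shores, between 3.08% and 4.75% and between 1.99% and 2.61%. The region with miR-615, at Hoxc5, was an island between 2.09% and 3.41%.

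Methylation outside CpG was at the level of the rest of the table. CHH levels, at cytosines not followed by G at either of the next bases, had medians of 0.583%, 0.587%, 0.671%, 0.738% and 0.658% at 58 Hox islands with a value in all libraries, beside 0.582%, 0.569%, 0.655%, 0.724% and 0.696% at all islands. Hox shores had CHH medians between 0.539% and 0.739%. Unconverted cytosine also gives such values, and its part was not tested.

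Genes that work with the Hox clusters mostly had low islands and some methylated shores, which is also the pattern of the whole table. Of all islands 8.41% had a mean of 5% or more, and of all shores 32.1% had at least 10%. These shares are the background for each gene list below. Of the 20 Polycomb group genes, which encode the repressors of the clusters, 26 of 29 islands had a mean under 5% and 14 of 45 shores at least 10%. The Kdm2b shore chr5:122951984-122953985, at the gene of a protein that recruits Polycomb to unmethylated CpG, had 64.7%, 48.0%, 39.5%, 46.4% and 41.8%. A short Kdm2b island, chr5:122880318-122880520, was listed at 0 in female ESC and had 21.2%, 43.4%, 17.4% and 15.4% in the other libraries, a spread seen in none of the Hox regions. The 9 trithorax group genes, which keep Hox genes active, had all 9 islands under 5% and 4 of 14 shores at or above 10%. The 9 genes of Pbx, Meis and Pknox cofactors, which bind DNA together with Hox proteins, had 12 of 12 islands under 5% and 2 of 20 shores at or above 10%, the higher being at Meis3 (57.1%, 51.4%, 39.9%, 45.5% and 44.8%). Levels at these genes say nothing of how much of each protein the cells held.

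Evx1 and Evx2, homeobox genes at the posterior ends of Hoxa and Hoxd, had 5 of 5 islands under 5% and 4 of 13 shores at or above 10%. The Evx2 shore chr2:74653438-74655438 had 34.9%, 21.6%, 13.6%, 23.5% and 16.8%, so that PGC was lowest and female ESC highest, as in the Hoxd4 shore. The 6 caudal and ParaHox genes, regulators and relatives of the Hox genes, had 7 of 8 islands under 5% and 5 of 15 shores at or above 10%, with the pancreatic gene Pdx1 highest (29.9%, 25.2%, 16.8%, 22.1% and 22.2%). Of 39 homeobox genes outside the clusters, 3 of 92 islands and 46 of 176 shores had a mean of at least 10%. Their shores had medians of 5.57%, 5.34%, 4.44%, 5.01% and 5.78%, within 1 point of the Hox shores in each library. In PGC minus female ESC 22 of these 176 shores were at least 10 points lower, where 15.1% of all shores were, and 0 were higher, where 0.934% were.

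The labels were compared with 3 sets of genes. Islands at 8 maternally methylated imprinted genes (10 islands) had a median of 2.63% in female ESC and 2.84% in ESC-PGCLC, and of 48.6% in pESC and 48.2% in pESC-PGCLC, so the 2 parthenogenetic libraries stood apart from the female pair. The PGC library had 40.6% at them, and its place beside the parthenogenetic libraries was not tested. A parthenogenetic genome carries these marks on both alleles, and a genome with both parents on the maternal allele. The medians in both stem cell lines were below those shares, and the cause was not tested. Islands of germline genes (7 islands) had medians of 31.0%, 22.5%, 22.9%, 30.4% and 21.8%, and those of gonadal somatic genes (9 islands) were between 2.19% and 2.74%. These values do not measure how pure the sorted cells were, and the share of feeder or gonadal somatic cells in a library was not tested.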

How the data were processed

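Reduced representation bisulfite libraries were made after MspI digestion with lambda DNA added, per the labels' protocols. Bismark 0.16.3, Bowtie2 and the build mm10 are named per the submitters' processing notes. The authors deposited, for every region and cytosine context, a methylation level as a fraction (0 to 1). The sources used here do not say how regions were drawn or reads filtered, and depth is unknown.

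Levels were multiplied by 100. CG-context CGI and shore entries listed in all 5 libraries were tied to genes within 1 kb by RefSeq coordinates (GRCm38.p6); coordinates are printed as deposited, and their counting base is not stated. With 1 library a group there was no test: 8 pairs of libraries were compared and a difference of at least 10 points was called, the share called over all regions being the background. The call was run on simulated data at an assumed depth, which cannot show how it behaves at the real, unknown depth. Python 3.11.15 with pandas 2.3.3 and numpy 2.4.6 was used. Alternatives were calls at 5 and 25 points, other sets of regions, levels scaled to 1 class mean, subtraction of CHH levels and length-weighted means.

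Levels in all libraries are printed for Hox regions called in any comparison, the 6 islands and 6 shores with the highest mean, the islands of largest range and the lowest region of each cluster; other regions were named after their values were seen. The members and gene lists were chosen with earlier results of these data known.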

Additional observations from a re-analysis of the deposited data

Results flagged for a closer look

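The shore at Hoxd8, chr2:74706004-74708005, changed in opposite directions in the 2 inductions: by -19.2 points from female ESC (37.9%) to ESC-PGCLC (18.8%) and by 3.85 points from pESC (20.3%) to pESC-PGCLC (24.1%). The first change minus the second is -23.0 points. Each change rests on 1 library a side, and the difference between them was not tested. The female ESC library alone was high here, since the other 4 lay between 18.8% and 24.1%.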

How the results depend on the processing

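No paired analysis was possible because each group had 1 library, and for the same reason no library could be left out. Calls of Hox regions depended on the threshold. At 25 points 0 regions were called in each of the 8 comparisons. At 5 points 14 regions were called in pESC minus female ESC (4 higher, 10 lower) and 15 in pESC-PGCLC minus pESC (2 higher, 13 lower). In pESC-PGCLC minus ESC-PGCLC 7 were called (5 higher, 2 lower). All called were lower in ESC-PGCLC minus female ESC (21), PGC minus female ESC (25) and PGC minus pESC (23). All were higher in ESC-PGCLC minus PGC (5) and pESC-PGCLC minus PGC (3). The share of all regions called was computed at 10 points with levels as deposited, so counts at 5 points or scaled have no background. With levels scaled to the same class mean, the counts were 1 (pESC minus female ESC), 5 (ESC-PGCLC minus female ESC), 0 (pESC-PGCLC minus PGC), 5 (PGC minus female ESC) and 2 (PGC minus pESC), and no call changed direction. Scaling did turn the direction of small differences: the median difference of all 108 Hox shores in PGC minus female ESC was -0.62 as deposited and 0.05 scaled, while at the 30 shores with a mean of at least 10% it was -8.41 and -4.47. The count of Hox shores above in pESC-PGCLC minus ESC-PGCLC was 79 as deposited, 85 scaled and 83 after subtraction of CHH levels. Taking every region of the cluster spans gave 5 calls in pESC minus female ESC, and taking regions listed in the 2 libraries compared gave 1 in pESC-PGCLC minus ESC-PGCLC. Subtracting CHH levels gave Hox island medians of 1.24% in female ESC, 1.22% in PGC and 1.17% in ESC-PGCLC. Means weighted by region length in place of the Hox shore medians were 10.2% in female ESC, 9.38% in pESC, 7.16% in PGC, 7.63% in ESC-PGCLC and 8.33% in pESC-PGCLC. Hox shores are 2001 or 2002 bp long, so weighting could hardly change them, and this move is that from a median to a mean. The other 43 counts and 42 medians stayed within their limits. Depth is unknown, so no level has a counting interval.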
